A study of Homo sapiens with 4 samples.

Results

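The genes for the proteins of the cytosolic ribosome were examined in Hs578T cells, a human breast cancer line with mesenchymal features, with and without knockdown of ELK3, an ETS family transcription factor. Members were all genes whose symbol begins with RPL or RPS and a number, together with the stalk and laminin receptor genes RPLP0, RPLP1, RPLP2 and RPSA, without the S6 kinase genes, antisense transcripts and pseudogenes. Of 87 such protein-coding genes in the RefSeq table, 74 had a probe set that lists a single symbol, out of 18132 genes measured that way. The other 13 were not analysed here. The 74 comprised 39 large subunit genes outside the stalk, 23 small subunit genes, the stalk genes RPLP1 and RPLP2, and 10 paralogs, the close relatives of a standard ribosomal protein gene. The levels of the Y-linked paralogs RPS4Y1 and RPS4Y2 are not given, and neither passed the test. RPS19BP1 begins like a member but encodes a protein that binds RPS19, and was left out (it rose by 0.60 on the log2 scale).

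RNA was measured on 4 Affymetrix PrimeView arrays. The knockdown arrays, numbered 1 and 5 in the labels, came from cells stably transduced with lentiviral shRNA against human ELK3, and the control arrays, numbered 1 and 2, from cells labelled ELK3 sh control, whose construct the labels do not describe. All were described as Hs578T cells grown in serum with insulin. Whether the groups also differed in line or clone was not tested, and such a difference cannot be told apart from the knockdown. What the numbers distinguish (constructs, clones or cultures) is not stated, so p-values measure only the spread between these arrays, which may be technical. Values are log2 signals normalized with RMA, and a difference of 1 is a doubling. Arrays have no read depth, and their number limits the precision.

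A ribosome joins a small subunit, which reads the messenger RNA, to a large subunit, which forms the peptide bond, and each subunit is built in the nucleolus from ribosomal RNA and many proteins made in near equal numbers. Ribosomal protein mRNAs are among the most abundant in growing cells. They typically begin with a C followed by a run of pyrimidines at the 5′ end, the terminal oligopyrimidine (TOP) tract, through which mTOR and LARP1 control their translation. Their promoters often hold ETS sites, bound in the literature mainly by GABP. Some members also act outside the ribosome, and loss of 1 copy of several of them causes Diamond-Blackfan anaemia, a failure of red cell production.

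The start sites below are those of some of the members that rose most (without RPS4X), some that fell, RPL22 and 3 paralogs. They show 1 annotated start of each, with or without a TOP tract. RPL10 has 3 windows, and the one shown was chosen for a run nearest to its start. Each line gives 15 bases before and 15 bases from the annotated start, read 5′ to 3′ from RefSeq (GRCh38.p14), with the C and its pyrimidine run in capitals.
RPL35A, chr3:197950175-197950204, plus strand: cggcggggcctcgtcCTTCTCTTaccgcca
RPL38, chr17:74203663-74203692, plus strand: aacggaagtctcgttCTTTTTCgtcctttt
RPS10, chr6:34426055-34426084, minus strand: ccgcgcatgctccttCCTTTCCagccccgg
RPL7A, chr9:133348203-133348232, plus strand: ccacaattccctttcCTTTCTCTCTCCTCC
RPL10, chrX:154398362-154398391, plus strand: caggcggaggagcgcCTCTTTCCCTTCggt
RPS28, chr19:8321481-8321510, plus strand: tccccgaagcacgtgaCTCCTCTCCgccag
RPL22, chr1:6199581-6199610, minus strand: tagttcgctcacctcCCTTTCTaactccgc
RPL22L1, chr3:170870181-170870210, minus strand: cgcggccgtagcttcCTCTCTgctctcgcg
RPL7L1, chr6:42879601-42879630, plus strand: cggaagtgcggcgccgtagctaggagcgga
RPS27L, chr15:63157463-63157492, minus strand: aagttgatgccgagcgcagatcgcttgcag
In the windows shown, RPL7L1 and RPS27L carried no such run near the annotated start, while RPL22L1 and RPL22 both did.

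Windows reaching from 250 bases before to 50 bases after the annotated start were found for 62 of the 74 members. A C followed by at least 4 pyrimidines, within 5 bases of a start, was found in 51 of the 62 (82.3%), against 25.2% of all 27305 genes with a window and 28.4% of the 14425 measured ones. The 51 had a median log2 change of 0.20 in the knockdown arrays, with 34 higher and 6 lower. The 11 without it had a median of 0.35, with 8 higher and 0 lower. Of all 74 members 66.2% were higher and 10.8% lower, and of all genes 29.5% and 21.3%. Over all measured genes the medians were 0.009 with the run and 0.002 without. The core of an ETS site, CCGGAA on either strand (TTCCGG on the other), was present in 36 of the 62 (58.1%), against 20.1% of all genes with a window and 27.1% of the 14425 measured ones. Members with it had a median change of 0.20 (25 higher, 3 lower) and the 26 members without it 0.24 (17 higher, 3 lower), while over all measured genes the medians were 0.10 with it and -0.02 without. The letters CTCTTCC or GGAAGAG, which can overlap the other motifs, were in 19 of the 62 (30.6%), against 13.5% of all genes and 15.3% of measured ones. Members with these letters had a median change of 0.29 (15 higher, 1 lower) and the 43 without 0.22 (27 higher, 5 lower). Over all measured genes these medians were 0.010 and 0.003. A match is a description of the letters and not a bound site, and the differences between these groups of members were not tested.

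The ETS core is shown in the 100 bases upstream of the start in the member that fell most and in 3 that rose, with the core in capitals (RefSeq, GRCh38.p14, 5′ to 3′).
RPL22L1, chr3:170870196-170870295, minus strand: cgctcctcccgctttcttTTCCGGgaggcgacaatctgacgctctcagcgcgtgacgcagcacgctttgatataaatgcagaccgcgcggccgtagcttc
RPL7L1, chr6:42879516-42879615, plus strand: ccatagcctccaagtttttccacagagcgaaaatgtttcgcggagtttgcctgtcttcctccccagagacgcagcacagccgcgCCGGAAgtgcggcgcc
RPS10, chr6:34426070-34426169, minus strand: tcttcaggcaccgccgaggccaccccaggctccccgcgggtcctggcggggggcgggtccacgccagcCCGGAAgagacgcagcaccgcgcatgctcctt
RPL38, chr17:74203578-74203677, plus strand: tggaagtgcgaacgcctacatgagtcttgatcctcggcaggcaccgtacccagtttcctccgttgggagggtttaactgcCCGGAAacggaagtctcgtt
The core was thus present upstream of a member that fell and of members that rose.

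ELK3 itself was 4.16-fold lower in the knockdown arrays, at 8.09 and 7.92 against 10.05 and 10.07 (a log2 change of -2.06 with an SE of 0.09, adjusted p = 2.57e-06 in limma). All 9 mesenchymal markers on the list for this line lay above the median of all values (6.78) in both control arrays, and 5 of 9 did in both knockdown arrays. All 9 were lower in both knockdown arrays than in either control array. FN1 read 8.21 and 7.56 against 14.05 and 14.10, COL1A2 4.98 and 5.62 against 13.77 and 13.56, and AXL 5.82 and 5.42 against 12.92 and 12.85. Of 7 epithelial or luminal markers 3 lay above that median in each group, and the keratin gene KRT18 read 13.08 and 12.62 against 10.62 and 10.68. The others on that list did not follow KRT18 to a like extent. ERBB2 was higher in both knockdown arrays by far less, and ESR1 was slightly lower in both. For CDH1, EPCAM, PGR and GATA3 the arrays of the groups overlapped. FN1, COL1A2, AXL and KRT18 were picked with their values known. Of the leukocyte and endothelial markers measured, 0 of 3 and 0 of 2 lay above that median in either group. The part of the marker changes in the results was not tested, nor whether the groups differed in line or clone. Of all genes, 50.8% passed the test, so passing alone sets no gene apart.

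At an adjusted p under 0.05 (limma, Benjamini-Hochberg over all genes), 49 of the 74 were higher in the knockdown arrays (66.2%), 8 were lower (10.8%) and 17 did not pass, against a background of 29.5% higher and 21.3% lower over all genes. After cyclic loess, which removes differences between arrays that depend on brightness, the same counts were 26 higher and 18 lower, against 26.1% and 23.9% of all genes (49.9% in either direction). At an adjusted p under 0.01 with the deposited values, 44 members were higher and 6 lower, against 40.9% of all genes in either direction. Without an intensity trend in the moderation, 34 were higher and 5 lower, against 28.9% and 21.2% of all genes (50.1% in either direction). With probe sets named as cross-hybridising dropped, 20 of the 43 members left were higher and 9 lower, against 28.1% and 21.1% of all genes (49.2% in either direction). The median log2 change was 0.21 with the deposited values and 0.05 after cyclic loess, beside -0.01 over all genes in either case. In RNA pooled from many cells, fewer cells with a transcript and less RNA per cell cannot be told apart, and an array normalized to its own distribution does not show how much ribosomal protein mRNA a cell held.

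The median absolute log2 change was 0.25 for members and 0.30 for all genes, and members ranged from -1.71 to 0.85. The selection in the series' design text, a fold over 1.5 with an unadjusted p under 0.05, held 5 members that were higher (RPL7L1, RPL35A, RPS4X, RPL38 and RPS10) and 1 that was lower (RPL22L1), against 19.1% and 12.6% of all genes. The arrays of a group lay close together for members. The median difference between the arrays of a group was 0.05 (knockdown) and 0.04 (control) for members, against 0.11 and 0.08 for all genes, and their median SE was 0.04 against 0.10.

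**Figure D1:**
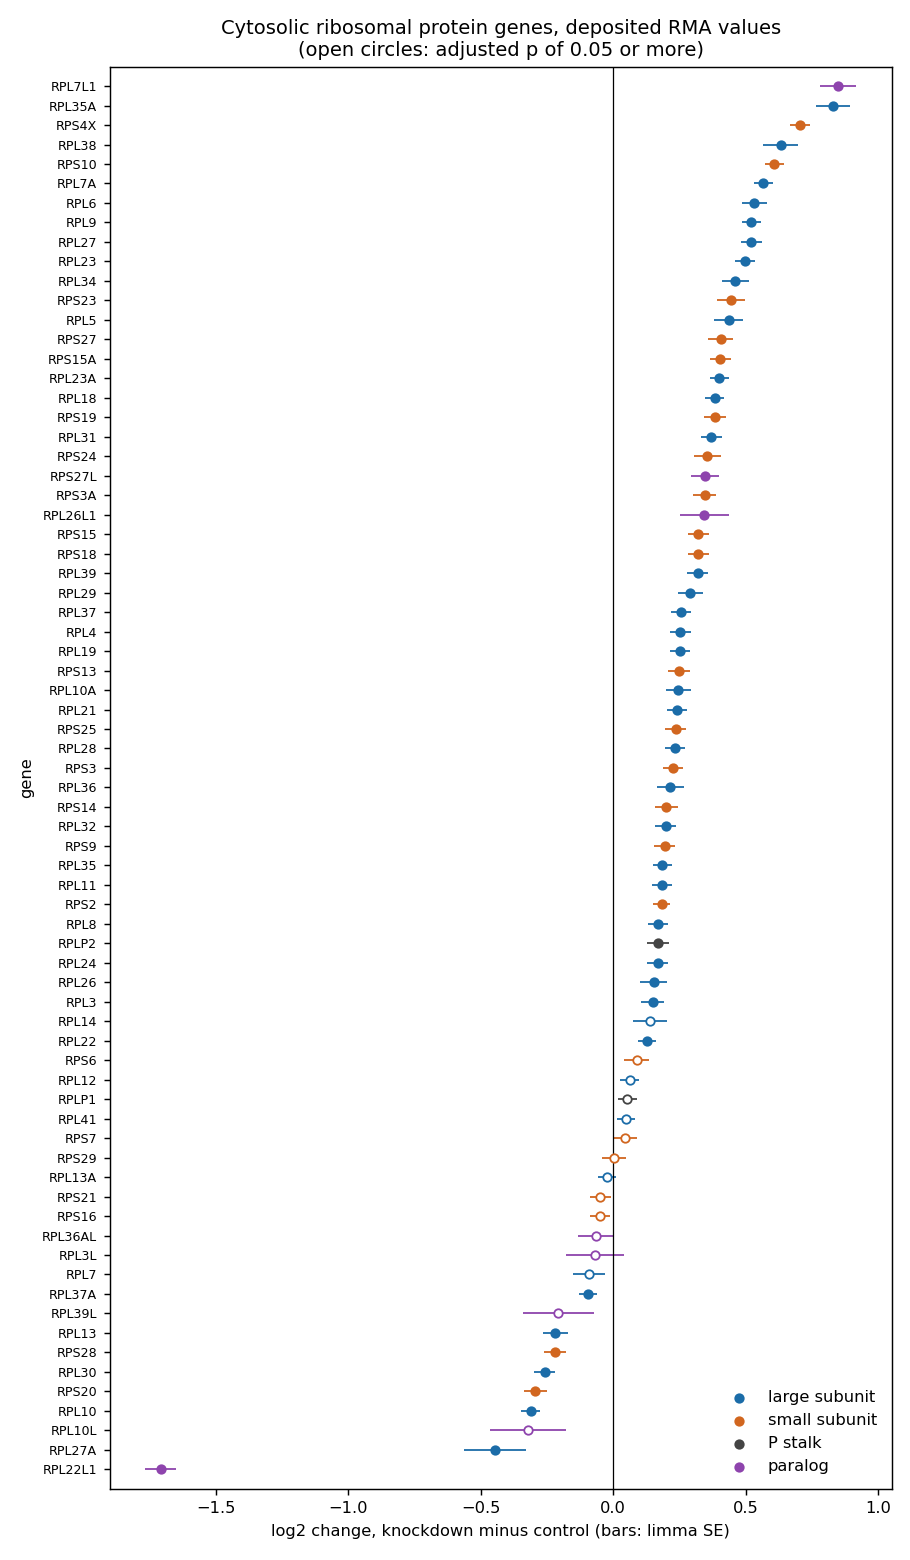
Log2 change (knockdown minus control, x axis) with its limma SE for the 72 members that are not Y-linked, ordered by change; filled circles passed an adjusted p of 0.05, and colours mark subunits and paralogs. RPL7L1 (0.85) and RPL35A (0.83) lead the rises and RPL22L1 (-1.71) stands apart at the bottom; the values are as deposited, and cyclic loess lowers the bright members by about 0.17, which leaves 26 higher and 18 lower.

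The counts in each direction changed with the scaling, and most members lay among the brightest probe sets. The median member read 13.89 in both knockdown arrays and 13.64 and 13.65 in the control arrays. The median member that is not a paralog lay above 99.7% to 99.8% of all probe sets in each array. Of 98 other genes with a mean of at least 13, 42.9% were higher and 30.6% lower, with a median change of 0.09, and after cyclic loess 25 were higher and 45 lower, with a median of -0.09. Cyclic loess lowered the change of each of the 67 members with a mean of at least 11 by a nearly fixed amount, from 0.166 to 0.174. The spacing of these members was thus nearly kept while the zero point moved. Of the 49 rises, 26 passed under quantile normalization, median subtraction and cyclic loess alike, and all 26 also passed without each array in turn. The 8 falls passed under all 3 scalings, and 5 of them without each array in turn. Which scaling is nearer to the RNA content of the cells was not tested.

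**Figure D2:**
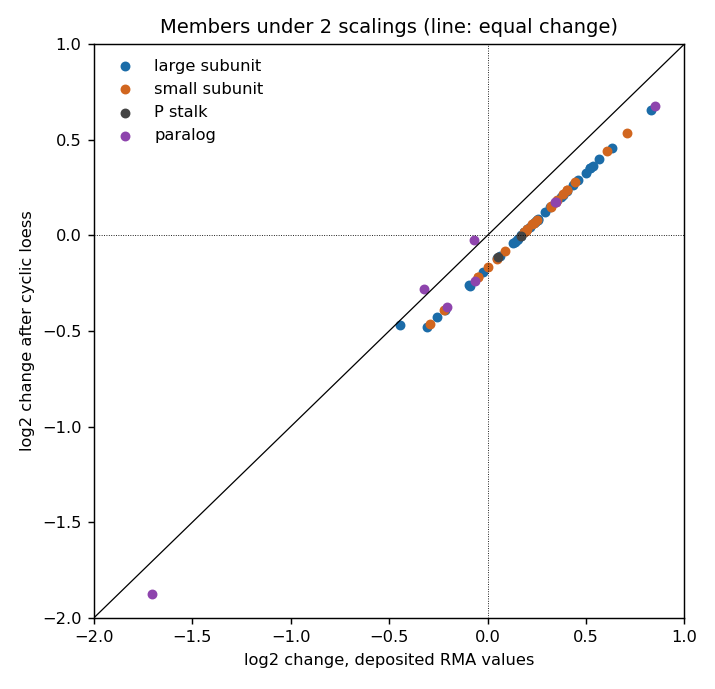
Log2 change of the 72 members that are not Y-linked with the deposited RMA values (x axis) and after cyclic loess (y axis); the solid line marks equal change. Bright members lie on a line parallel to it and about 0.17 below, so 49 higher and 8 lower become 26 higher and 18 lower over the 74 members.

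Large subunit genes outside the stalk were higher in 29 of 39 cases (74.4%) and lower in 5 (12.8%), with a median change of 0.24. Over all genes 29.5% were higher and 21.3% lower. After cyclic loess 14 of the 39 (35.9%) were higher and 9 (23.1%) lower, against 26.1% and 23.9% of all genes. The share lower was then near that of all genes. RPL35A, a Diamond-Blackfan anaemia gene, read 12.49 and 12.65 in the knockdown arrays and 11.73 and 11.76 in the control arrays. Its groups did not overlap, and it was 1.78-fold higher (log2 change 0.83, SE 0.06, limma adjusted p = 3.52e-05). RPL38, known for supporting translation of particular developmental mRNAs, read 13.24 and 13.05 against 12.51 and 12.52. It was 1.55-fold higher (0.63, SE 0.07, limma adjusted p = 1.66e-04). RPL7A read 14.35 and 14.32 against 13.78 and 13.76, which is 1.48-fold higher. RPL6 (13.70 and 13.61 against 13.09 and 13.15) was 1.45-fold higher. RPL9 (14.00 and 14.01 against 13.48 and 13.49) was 1.44-fold higher. These 5 genes rose under each of the 3 scalings, with changes after cyclic loess of 0.66, 0.46, 0.40, 0.36 and 0.35 in the order given.

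RPL5 and RPL11, which join the 5S ribosomal RNA and can bind the p53 regulator MDM2 when ribosome assembly fails, both rose with the deposited values, RPL11 not after cyclic loess. RPL5 read 13.95 and 13.79 against 13.45 and 13.43 and was 1.35-fold higher (limma adjusted p = 4.99e-04), and it stayed higher after cyclic loess (0.26). RPL11 read 14.34 and 14.29 against 14.11 and 14.15 (0.19 higher), and its call was lost after cyclic loess (0.02). RPL13A, a protein also known from a complex that silences inflammatory mRNAs, stood at 14.26 in both knockdown arrays and at 14.27 and 14.30 in the control arrays. Its change of -0.02 (SE 0.03) did not pass, though it did after cyclic loess (-0.19).

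Falls in the large subunit were fewer, and small by the probe set used for each gene. RPL10, which joins the large subunit late, in the cytoplasm, read 13.99 and 13.94 in the knockdown arrays and 14.27 and 14.28 in the control arrays. The arrays of each group lay close together and the groups were apart, and the gene was 1.24-fold lower (a log2 change of -0.31 with an SE of 0.04, adjusted p = 2.99e-04 in limma). It was read by 6 probe sets, of which 5 were lower and the dimmest did not pass. RPL30 read 13.52 and 13.54 against 13.76 and 13.81, a fall of 0.26 that all 4 of its probe sets shared. RPL13 (12.64 and 12.57 against 12.82 and 12.82) fell by 0.22, and RPL37A (14.24 and 14.25 against 14.34 and 14.34) by 0.09. Dimmer probe sets of RPL37A, with means of 8.58, 8.53, 7.94 and 6.17, passed as lower at -0.86, -1.29, -0.43 and -0.47. The one at 6.95 did not pass (-0.29). RPL27A was read by a dim probe set only (6.88 and 6.68 against 7.19 and 7.26), since its others also list a small nucleolar RNA, and it fell by 0.45. The call of RPL13 was lost without control replicate 1 (-0.22) or 2 (-0.22), that of RPL27A without control replicate 1 (-0.48) or 2 (-0.41), and that of RPL37A without any 1 array (-0.0992 to -0.0906), and without either control array 5 members in place of 8 were lower.

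Small subunit genes were higher in 16 of 23 cases (69.6%) and lower in 2 (8.7%), with a median change of 0.24. Over all genes 29.5% were higher and 21.3% lower. After cyclic loess 10 of the 23 (43.5%) were higher and 6 (26.1%) lower, against 26.1% and 23.9% of all genes. The share lower was then near that of all genes. RPS4X, the X-linked form of RPS4, read 13.89 and 13.93 in the knockdown arrays and 13.21 and 13.20 in the control arrays. It was 1.63-fold higher (log2 change 0.71, SE 0.04, limma adjusted p = 7.50e-06), the smallest adjusted p among members that rose. RPS10 read 14.34 in both knockdown arrays against 13.71 and 13.75, which is 1.52-fold higher (0.61, SE 0.04, limma adjusted p = 1.08e-05). After cyclic loess they stood at 0.53 and 0.44 and still passed.

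RPS19, RPS24 and RPS7 are further Diamond-Blackfan anaemia genes. RPS19, the one most often mutated in Diamond-Blackfan anaemia, read 14.21 and 14.15 against 13.76 and 13.82 and was 1.30-fold higher (0.38), also after cyclic loess (0.21). RPS24 (14.10 and 14.03 against 13.65 and 13.77) rose by 0.36, and by 0.18 after cyclic loess. Averaged over its probe sets it did not pass (0.10), and it was lower by the dim probe set left when cross-hybridising ones were dropped (-0.40). RPS14, lost in the deletion of chromosome arm 5q in myelodysplasia, read 14.09 and 14.09 against 13.93 and 13.84 and rose by 0.20, a call that was lost after cyclic loess (0.03) and without control replicate 2 (0.15). RPS7 read 13.70 and 13.76 against 13.65 and 13.71. Its groups overlapped and it did not pass (0.05), although after cyclic loess it passed as lower (-0.13).

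RPS15, mutated in some leukaemias, read 14.24 and 14.30 against 13.93 and 13.96 and rose by 0.32, also after cyclic loess (0.15). RPS3, a protein that also takes part in DNA repair, read 14.23 and 14.23 against 13.98 and 14.04 and rose by 0.23, which was lost after cyclic loess (0.06). RPS6, the substrate of S6 kinases, read 13.71 and 13.66 against 13.64 and 13.55 by its brightest probe set and did not pass (0.09, SE 0.05). RPS20 and RPS28 were the falls. RPS20 read 13.38 and 13.30 against 13.62 and 13.65 (1.23-fold lower, limma adjusted p = 0.00103). RPS28 read 13.74 and 13.77 against 13.93 and 14.01 (1.16-fold lower, limma adjusted p = 0.00386), a call lost without an intensity trend. RPS20 and RPS28 both fell further after cyclic loess, to -0.47 and -0.39.

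The stalk genes encode acidic proteins that draw elongation factors to the ribosome. RPLP1 read 14.19 and 14.19 against 14.11 and 14.16 and did not pass (0.05), while after cyclic loess it passed as lower (-0.11). RPLP2 read 13.82 and 13.78 against 13.61 and 13.66 and passed at 0.17, but not without control replicate 1 (0.14) nor after cyclic loess, where it stood at -0.0029.

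**Figure D3:**
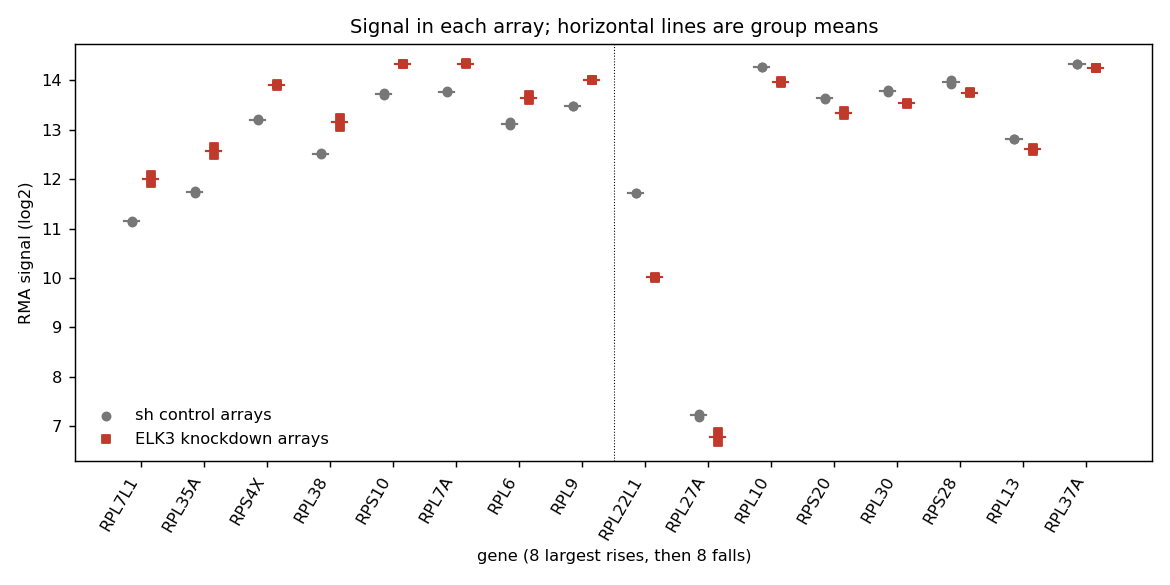
RMA log2 signal (y axis) in each control array (grey circles) and knockdown array (red squares) for the members with the 8 largest rises and the 8 falls by the deposited values, with group means as lines; levels of different genes are not comparable, since probe sets differ. The 16 genes were picked by their change in these same arrays, so their groups lying apart is no separate result. RPL22L1 has the widest margin (10.02 and 10.01 against 11.71 and 11.73), and each of the 16 keeps its direction after cyclic loess.

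Of 10 paralogs, 3 were higher, 1 was lower and 6 did not pass, with a median change of -0.07. Over all genes 29.5% were higher and 21.3% lower. After cyclic loess 2 paralogs were higher and 2 lower, against 26.1% and 23.9% of all genes. RPL22L1 showed the largest change of any member. It read 10.02 and 10.01 in the knockdown arrays and 11.71 and 11.73 in the control arrays, and the arrays within a group lay close together. It was 3.26-fold lower (a log2 change of -1.71 with an SE of 0.06, adjusted p = 9.67e-07 in limma) and stood at -1.88 after cyclic loess. Its other probe set was dim (mean 4.34) and did not pass (-0.14). RPL22, an RNA-binding protein of the large subunit that is known to repress RPL22L1, read 14.39 and 14.36 against 14.23 and 14.25, a rise of 0.13. That rise did not pass when array medians were subtracted (0.11), without control replicate 1 (0.12) or without control replicate 2 (0.14), and it stood at -0.04 after cyclic loess. The other probe sets of RPL22 rose by 0.54 and 0.21.

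RPL7L1, a nucleolar relative of RPL7, was the largest rise. It read 12.08 and 11.91 against 11.16 and 11.14 and was 1.80-fold higher (log2 change 0.85, SE 0.07, limma adjusted p = 4.67e-05). Of its 7 probe sets, 6 were higher by 0.85 to 0.93, and the seventh was dim (mean 4.47) and did not pass (-0.10). The 6 have names that mark cross-hybridisation, so only the dim one remained when such probe sets were left out. RPL7 read 12.95 and 12.91 against 13.10 and 12.94 and did not pass (-0.09), though it passed after cyclic loess (-0.26).

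RPS27L, a target of p53, and RPS27 rose by like amounts. RPS27L read 12.81 and 12.73 against 12.39 and 12.46 (log2 change 0.35) and RPS27 13.85 and 13.89 against 13.42 and 13.51 (0.41). With the mean of its probe sets RPS27L did not pass (0.14). RPL26L1 read 11.65 and 11.93 against 11.42 and 11.47 and rose by 0.34, a call lost without control replicate 1 (0.32) and after cyclic loess (0.17). RPL26 read 13.85 and 13.73 against 13.67 and 13.61 and rose by 0.15, a call lost without knockdown replicate 1 (0.09), without control replicate 1 (0.18) or 2 (0.13), after quantile normalization (0.11) or median subtraction (0.13), and it stood at -0.02 after cyclic loess.

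Among the other pairs the paralog did not pass with all 4 arrays. RPL39L, a form found in testis and in some tumours, read 10.40 and 10.83 against 10.85 and 10.80 (-0.21), and the knockdown arrays differed by more than the groups. Without knockdown replicate 5 it passed as lower (-0.43). RPL39 rose by 0.32 (14.14 and 14.08 against 13.81 and 13.77). RPL36AL read 11.22 and 11.33 against 11.30 and 11.38 (-0.07), though it passed as lower after cyclic loess (-0.24). RPL10L, known from testis, read 4.98 and 5.33 against 5.57 and 5.39 (-0.32), and without knockdown replicate 5 it passed as lower (-0.50). RPL3L, a form of striated muscle, read 4.99 and 5.15 against 5.20 and 5.08 (-0.07). Both lay at the dim end, where an RMA value shows no call of signal above background. RPL3 rose by 0.15 (13.50 and 13.57 against 13.38 and 13.40), a call lost without knockdown replicate 5 (0.12), without control replicate 1 (0.14) or 2 (0.16), and it stood at -0.02 after cyclic loess. Paralogs and pseudogenes share sequence with their partners, so signal from a partner cannot be told apart where probes match both.

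The 74 members were read by 191 probe sets, of which 111 were higher and 28 lower, against 27.4% and 22.5% (49.9% in either direction) of all 44988 single-symbol probe sets. Of 54 members with more than 1 probe set, 44 had passed, and 39 of these had another probe set that passed the same way. In 18 of them another probe set moved the same way and more than 2 times as far. Of the examples here, RPS23 and RPS15A were picked with their values known. RPS14 rose by 0.20 by its brightest probe set (mean 13.99) and by 1.00 and 1.12 by those at 13.07 and 13.05. RPS23, a protein of the decoding centre, rose by 0.45 at a mean of 14.04 and by 1.93 at 9.05. RPS15A rose by 0.40 at 13.82 and by 1.74 at 6.93. The fall of RPS20 was 0.29 at 13.49 and 1.77 at 6.21.

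For 3 members the probe sets passed in opposite directions. RPS6 had 1 dim probe set (mean 7.12) that read 5.67 and 4.58 in the knockdown arrays and 9.16 and 9.07 in the control arrays, a fall of 3.99, while another at 12.81 rose by 0.18. RPL32 rose by 0.20 and 0.55 by 2 probe sets and fell by 1.65 by the one at 8.76. RPS24 rose by 0.36 by each of its bright probe sets and fell by 0.40 by the one at 6.31. What these dim probe sets detect was not tested.

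**Figure D4:**
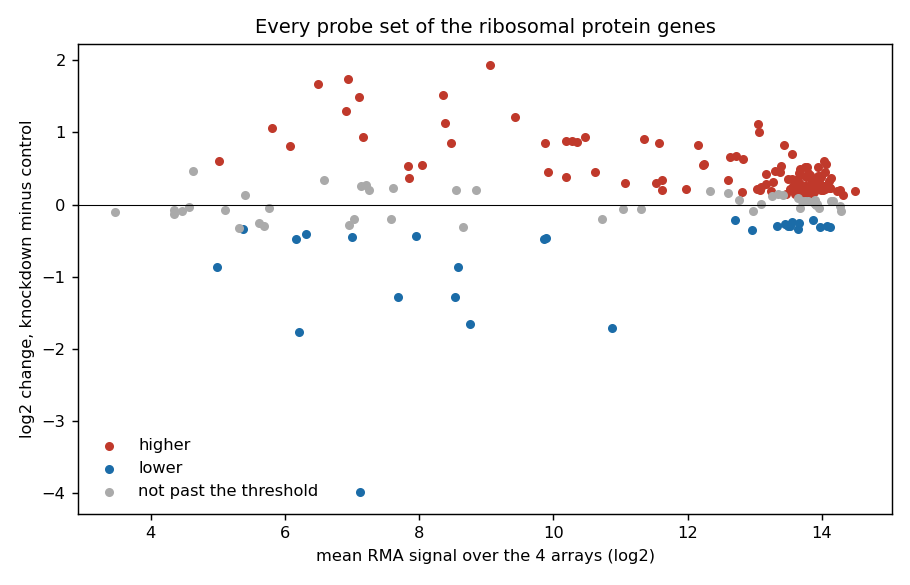
Log2 change (y axis) against mean RMA signal over the 4 arrays (x axis) for every probe set of the members that are not Y-linked, coloured by its call with the deposited values. The 102 probe sets with a mean of at least 13 range from -0.33 to 1.12, all of them together from -3.99 (RPS6) to 1.93 (RPS23), and bright members shift down by about 0.17 after cyclic loess.

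The mitochondrial ribosome, which translates the few proteins encoded in mitochondrial DNA, also has 74 measured genes on this array. Of these, 48 were higher (64.9%) and 10 lower (13.5%), against 29.5% and 21.3% of all genes. Their median change was 0.50 against 0.21 for the cytosolic genes. After cyclic loess 43 mitochondrial genes were higher and 16 lower, against 26.1% and 23.9% of all genes. MRPS2 was 4.19-fold, MRPS14 3.39-fold, MRPL9 2.42-fold and MRPL28 2.41-fold higher. A fold over 1.5 with an unadjusted p under 0.05 was reached upward by 30 mitochondrial and 5 cytosolic members, against 19.1% of all genes. Mitochondrial genes were read by dimmer probe sets than most cytosolic members. For 18 cytosolic members a dimmer probe set moved the same way and more than 2 times as far. The sizes of change are therefore not directly comparable, and the difference between the families was not tested.

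**Figure D5:**
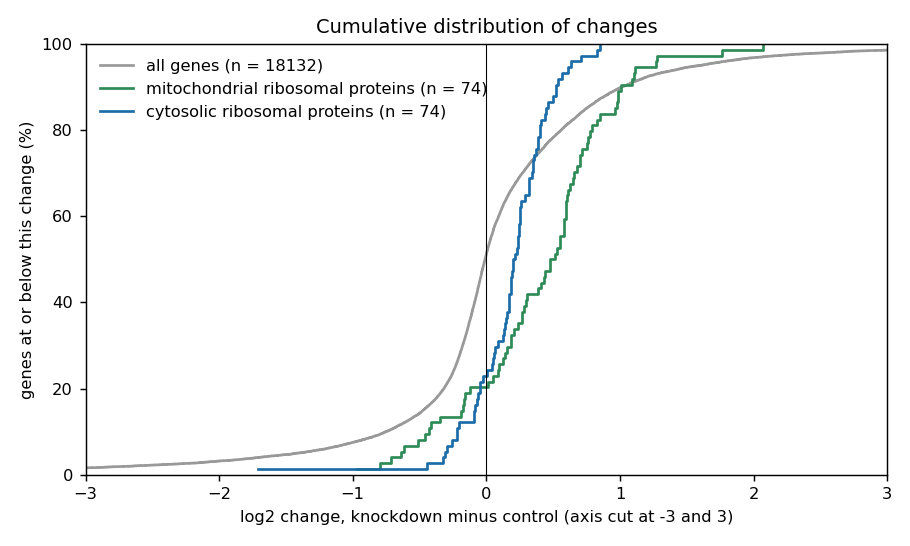
Cumulative share of genes (y axis, percent) at or below a log2 change (x axis, ends cut off) for all 18132 genes, 74 mitochondrial and 74 cytosolic ribosomal protein genes, with the deposited values. The cytosolic curve is steep around its median of 0.21 and the mitochondrial curve, read by dimmer probe sets, lies further right, at a median of 0.50. After cyclic loess the cytosolic median is 0.05.

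Other genes of protein synthesis were counted by list with the same fit, in which 29.5% of all genes were higher and 21.3% lower. FAU, the only member measured of the ribosomal protein genes with other symbols, rose by 0.20, a call lost after cyclic loess (0.03). Elongation factors and other TOP mRNA genes rose in 6 of 13 cases and fell in 4, with a median of 0.07. BTF3 and NACA, which form the complex that meets new chains at the ribosome, rose 1.54-fold and 1.48-fold. PABPC1, the poly(A) binding protein, and EEF1B2, an exchange factor of elongation, were 1.47-fold and 1.40-fold lower. Initiation factors rose in 14 of 32 cases (43.8%) and fell in 7 (21.9%, near the share of all genes). The largest rises were EIF3M (1.87-fold), EIF1AX (1.78-fold), EIF2S3 (1.72-fold) and EIF2B3 (1.65-fold).

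Of 37 small subunit assembly genes 21 rose and 3 fell, with a median of 0.37. They were led by LTV1 (2.44-fold), TSR2, a carrier of RPS26 (2.28-fold), DDX52 (2.14-fold) and BMS1 (2.06-fold). Over all genes 29.5% rose and 21.3% fell. The shares that fell were near that for large subunit assembly (25%), RNA polymerase I (20%) and nucleolar particle genes (25%). Of 28 large subunit assembly genes 12 rose and 7 fell, with MDN1 2.89-fold, RPF2 2.28-fold and RSL1D1 1.98-fold higher and RRS1 1.83-fold lower. Once probe sets named as cross-hybridising were dropped, RPF2 missed the threshold, at -0.41. RNA polymerase I genes, which make the large ribosomal RNA precursor, rose in 9 of 15 cases and fell in 3. POLR1D was 2.74-fold, TTF1 2.30-fold and POLR1B 2.17-fold higher and TAF1C 1.74-fold lower, and POLR1D did not pass with the mean of its probe sets (0.18). Without control replicate 1, 5 genes of that list rose. Among 12 nucleolar particle genes 6 rose and 3 fell, led by GAR1 (1.91-fold), NOLC1 (1.74-fold), NOP56 (1.71-fold) and the methyltransferase gene FBL (1.69-fold). Without knockdown replicate 1, 5 of these, 11 large subunit and 8 small subunit assembly genes were lower, and without control replicate 2, 4 large subunit assembly genes were.

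Of 23 regulators of TOP mRNAs and of ribosome supply 13 rose (56.5%) and 6 fell (26.1%), against 29.5% and 21.3% of all genes. The mTOR subunit gene MLST8 was 3.70-fold higher, EIF4EBP2, an inhibitor of cap-dependent initiation, 3.43-fold higher, and TSC1, an inhibitor of mTOR, 3.06-fold higher. Genes of like function went the other way, with EIF4EBP1 2.51-fold and the mTOR inhibitor DEPTOR 2.79-fold lower, both named after their values were seen. MYC, a transcription factor that drives ribosome production, read 9.77 and 9.56 against 11.31 and 11.28 and was 3.09-fold lower. Of 10 genes of the p53 and nucleolar stress list 8 rose and 1 fell, with a median of 1.08. BBC3 was 8.63-fold, SESN1 8.16-fold, MDM2 4.36-fold and CDKN1A 3.80-fold higher, and all are known targets of p53. The fall was GADD45A, a growth arrest gene that is also a p53 target, which was 3.69-fold lower. Whether any of these regulators bears on the ribosomal protein genes was not tested.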

How the data were processed

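The deposited values are log2 signals per probe set that the authors made with RMA, as the submitters' processing notes name it. The software version of that step is not stated. Of 49293 probe sets, 44988 list 1 gene symbol and were used, and a gene took its brightest one. limma 3.58.1 in R 4.3.3 was fitted over 18132 genes (lmFit, eBayes with an intensity trend), with Benjamini-Hochberg adjustment over all of them and a threshold of 0.05. With 2 arrays a group an exact permutation test cannot go below p = 0.333 and was not used for calls. Simulated data with known changes were used to test the fit. There were 0 columns of other samples. Start windows came from RefSeq tables (GRCh38.p14), with figures drawn in matplotlib 3.10.9. The members, gene lists and naming rule were chosen with earlier results of these data known. The rule named ELK3, the 8 largest rises and falls past the threshold, the stalk genes, members known from disease or regulation, paralog pairs, members with probe sets called both ways, and up to 4 genes of each list. Alternatives changed the moderation, probe set choice, dim filter, scaling, threshold and arrays.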

Additional observations from a re-analysis of the deposited data

How the results depend on the processing

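Of the alternatives for single named genes, 923 kept their side of the threshold, and their direction where called in either fit. The call was lost in 46 and gained in 5. In 13 the sign changed where at least 1 of the fits called the gene. The cause was not tested. With cyclic loess, 26 ribosomal protein genes were higher and 18 lower (median 0.0508), against 49 and 8 (median 0.21) with the deposited values, and the share of calls that were higher was 59.1% against 86.0%. Quantile normalization and median subtraction each gave 85.5%. With cyclic loess, 0 genes of the list under other symbols and 5 RNA polymerase I genes were higher. Lower were 6 nucleolar particle, 12 large subunit assembly, 8 small subunit assembly and 16 mitochondrial genes. Of all genes 26.1% were higher and 23.9% lower with cyclic loess. There 13 members changed sign. Of these, 6 had been called higher, RPL22 (-0.0390), RPL26 (-0.0173), RPL3 (-0.0236), RPLP2 (-0.0029), RPL8 (-0.00076) and RPL24 (-0.0024), and none of the 6 passed there. A further 5 became called lower, RPLP1 (-0.11), RPS7 (-0.13), RPL12 (-0.11), RPL41 (-0.12) and RPS29 (-0.17), and RPS6 (-0.083) and RPL14 (-0.035) passed in neither. With cross-hybridising probe sets left out, 43 members were left, 20 higher and 9 lower (49.2% of all genes passed), and of the elongation list 2 were higher and 2 lower. There RPF2 (-0.41), RPL7L1 (-0.10) and RPLP2 (-0.10) changed sign but did not pass. RPS24 (-0.40) and RPS6 (-3.99) passed as lower there, RPS6 not having passed by its brightest probe set. With the mean of all probe sets RPL32 (-0.30) and RPS6 (-0.916) passed as lower. There 5 small subunit assembly genes were lower, while 51.8% of all genes passed in either direction. Without an intensity trend 5 members were lower and 0 genes of the list under other symbols higher, against 21.2% lower and 28.9% higher of all genes. Among the named genes, the calls of RPL11, RPL13, RPL22, RPL26, RPL3, RPL32, RPL37A, RPLP2, RPS14, RPS28, RPS3 and FAU were lost there. With dim genes left out or quantile normalization 5 nucleolar particle genes were lower, where 71.4% and 50.8% of all genes passed in either direction. With a fold over 1.5 and an unadjusted p under 0.05, 5 members were higher and 1 lower, against 19.1% and 12.6% of all genes. The other lists then gave 0 higher for the other symbols, 1 higher and 0 lower for elongation, 4 higher and 3 lower for initiation, 5 higher for RNA polymerase I, 0 lower for nucleolar particles, 7 higher and 4 lower for large subunit assembly, 13 higher and 1 lower for small subunit assembly, 7 higher for mTOR and TOP regulators, and 30 higher and 5 lower for mitochondrial genes.

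Leaving out each array in turn gave 42 to 49 members higher and 5 to 9 lower. It gave 5 to 9 RNA polymerase I genes higher, and 2 to 5 nucleolar particle, 4 to 11 large subunit assembly and 2 to 8 small subunit assembly genes lower. The lone array left in a group was assumed to vary like the other group. Counting a repeated symbol as 1 symbol, an alternative chosen after seeing the data, gave 50 of 75 higher and 8 lower. No paired analysis was possible because the groups share only replicate number 1. With 2 arrays a group, small changes in dim genes are poorly measured, and the brightest probe sets lie near the top of the scale.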
